A study of Mus musculus with 24 samples.

Results

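The genes described here copy DNA in S phase: 39 mouse genes for origin licensing, the replicative helicase, the replication fork, nucleotide supply, the copying of chromatin and the regulators of S phase entry. They were chosen by symbol from the biology of replication, with no cut on measured levels but with earlier results of these data known. The choice was made out of 55414 genes in RNA-seq count tables of mouse spleen, and all 39 symbols were found in the tables. The tables held 8 libraries of total RNA from splenocytes of BALB/c mice. Titles of 4 libraries read control and of 4 read CT-26, the name of a mouse colon carcinoma line that was injected into the right side of BALB/c mice at 8 weeks of age.

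The treatment field goes against the titles. Libraries titled control are labelled as injected with CT-26 cells, and libraries titled CT-26 are labelled as healthy control. Both fields give the same division, so the sets carry their titles in what follows, the direction of every difference is CT-26-titled minus control-titled, and none is read as tumour-bearing against healthy. All 8 share strain, tissue and cell type labels, and no genetic alteration or further treatment is given for any of them. Nothing in the labels says how many mice stood behind the libraries, so the p-values measure the spread between these samples, which may be technical.

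A cell that is about to divide loads the MCM2-7 helicase onto origins with the help of the origin recognition complex, Cdc6 and Cdt1. Kinases then fire the origins: Cdc45 and GINS join the helicase, polymerases alpha, delta and epsilon extend the new strands on the sliding clamp PCNA, and ligase seals the Okazaki fragments. E2F factors switch on most of these genes at the boundary of G1 and S phase, and the cyclin E genes are both E2F targets and activators of the kinase that starts S phase. The adult spleen is mostly a lymphoid organ of resting cells, but in mice it can also make red cells and myeloid cells, whose precursors divide quickly.

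The promoters of the genes were read first, since E2F letters are the sequence feature that many replication genes are known to share. RefSeq promoter windows (GRCm38.p6, 250 bases before to 50 after an annotated start) were at hand for 34 of the 39 genes, in 41 windows, and not for Pole, Gins2, Ccne2, Mcm4 and Gins1. The 8-letter forms TTTGGCGC, TTTCGCGC and TTTCCCGC were searched on both strands, and 13 of the 41 windows (31.7%) held at least 1 match, against 1.84% of all 32851 windows and 3.97% of the 6345 windows of genes that were tested. Median GC content was 61.3% in the 41 windows, 61.0% in those of tested genes and 52.7% in all. Overlapping matches on opposite strands were counted separately, as in Mcm5 and Mcm6. The promoters of 7 genes are shown, from 250 bases before the start to the last base before it, with every E2F match in capitals. Mcm6, Mcm5, Cdc6 and Uhrf1 hold matches and rose, Pola1 holds a match and did not pass the test, and Mybl2 and Tk1 hold no match and showed the largest and the third largest fold changes. Their positions are chr1:128359706-128359955 (minus strand) for Mcm6, chr8:75109259-75109508 (plus strand) for Mcm5, chr11:98907901-98908150 (plus strand) for Cdc6, chr17:56304063-56304312 (plus strand) for Uhrf1, chrX:93632156-93632405 (minus strand) for Pola1, chr2:163054385-163054634 (plus strand) for Mybl2 and chr11:117826015-117826264 (minus strand) for Tk1.
Mcm6: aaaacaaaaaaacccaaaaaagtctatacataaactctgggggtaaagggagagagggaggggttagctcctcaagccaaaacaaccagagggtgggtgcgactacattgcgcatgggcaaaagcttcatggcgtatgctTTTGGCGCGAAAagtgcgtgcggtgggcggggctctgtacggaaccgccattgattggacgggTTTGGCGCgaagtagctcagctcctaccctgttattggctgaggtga
Mcm5: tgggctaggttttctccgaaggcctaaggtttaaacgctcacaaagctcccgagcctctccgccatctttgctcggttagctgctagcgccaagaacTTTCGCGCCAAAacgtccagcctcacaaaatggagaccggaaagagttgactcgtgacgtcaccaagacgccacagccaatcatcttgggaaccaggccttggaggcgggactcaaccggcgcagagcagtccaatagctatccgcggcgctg
Cdc6: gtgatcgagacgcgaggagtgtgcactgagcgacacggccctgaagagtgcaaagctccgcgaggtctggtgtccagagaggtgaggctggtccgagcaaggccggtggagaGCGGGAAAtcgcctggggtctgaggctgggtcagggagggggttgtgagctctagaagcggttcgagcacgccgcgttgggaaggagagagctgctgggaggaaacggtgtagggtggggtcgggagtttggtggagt
Uhrf1: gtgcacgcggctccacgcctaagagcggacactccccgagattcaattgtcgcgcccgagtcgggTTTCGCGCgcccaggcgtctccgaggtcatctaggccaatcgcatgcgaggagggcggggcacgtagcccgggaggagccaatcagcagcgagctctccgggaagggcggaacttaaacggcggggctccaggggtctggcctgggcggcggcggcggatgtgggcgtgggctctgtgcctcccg
Pola1: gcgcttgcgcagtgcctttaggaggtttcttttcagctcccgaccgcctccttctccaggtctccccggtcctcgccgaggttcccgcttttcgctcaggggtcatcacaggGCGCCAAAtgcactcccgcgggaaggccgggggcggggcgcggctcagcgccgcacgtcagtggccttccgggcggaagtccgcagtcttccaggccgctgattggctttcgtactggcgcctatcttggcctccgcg
Mybl2: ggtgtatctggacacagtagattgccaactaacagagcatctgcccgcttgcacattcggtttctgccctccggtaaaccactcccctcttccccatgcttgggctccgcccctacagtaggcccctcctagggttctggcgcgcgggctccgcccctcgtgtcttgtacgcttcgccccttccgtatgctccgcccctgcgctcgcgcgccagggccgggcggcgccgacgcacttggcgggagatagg
Tk1: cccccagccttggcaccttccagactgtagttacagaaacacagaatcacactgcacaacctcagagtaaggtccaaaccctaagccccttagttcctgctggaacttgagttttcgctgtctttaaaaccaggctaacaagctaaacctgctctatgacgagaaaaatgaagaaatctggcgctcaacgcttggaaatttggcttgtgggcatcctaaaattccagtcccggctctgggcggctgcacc

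In Mcm6 the matches begin 110, 106 and 47 bases before the start, and the first pair share letters. The Mcm5 pair likewise overlap, 153 and 149 bases before the start. The other genes with a match were Cdt1, Dnmt1, Lig1, Mcm3, Mcm7, Orc1, Pold1 and Rfc3. Counting those shown, 13 genes had a match. A match is a description of letters, and the absence of one says only that these letters are not in the window. The letters did not sort the genes by their change. Of the 11 tested genes with a match 9 rose, and the 11 log2 fold changes ran from -0.36 to 3.09 around a median of 1.79, and of the 16 tested genes with a window and no match 15 rose, with a median of 1.60 and a range from 0.68 to 4.21. Among other tested genes with a window, 65 of 227 with a match (28.6%) and 984 of 4682 without (21.0%) were higher, while 16.3% and 21.8% were lower. A second motif, the CHR element of genes switched on in G2 and mitosis (TTTGAA), was found in 9.76% of the members' windows against 12.8% of tested genes, and the CCAAT box in 56.1% against 37.3%.

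Totals ran from 735298 to 1970950 counts per library, and 11890 to 13946 genes had at least 1 count. Mitochondrial transcripts took between 46.2% and 66.1% of counts in the control-titled set and between 32.0% and 41.1% in the CT-26-titled set, with control-titled library 1 at the top. Levels are given as CPM, counts scaled to a common total per library after TMM scaling, and levels of single genes are ranked only as TPM, which are also divided by exonic length. At this depth 1 count was a sizeable step for many members: 3 counts were worth between 1.80 and 3.41 CPM, and 31 of the 39 genes had a count in every library. Every member level is drawn in the heat map of log2(CPM + 1).

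**Figure D1:**
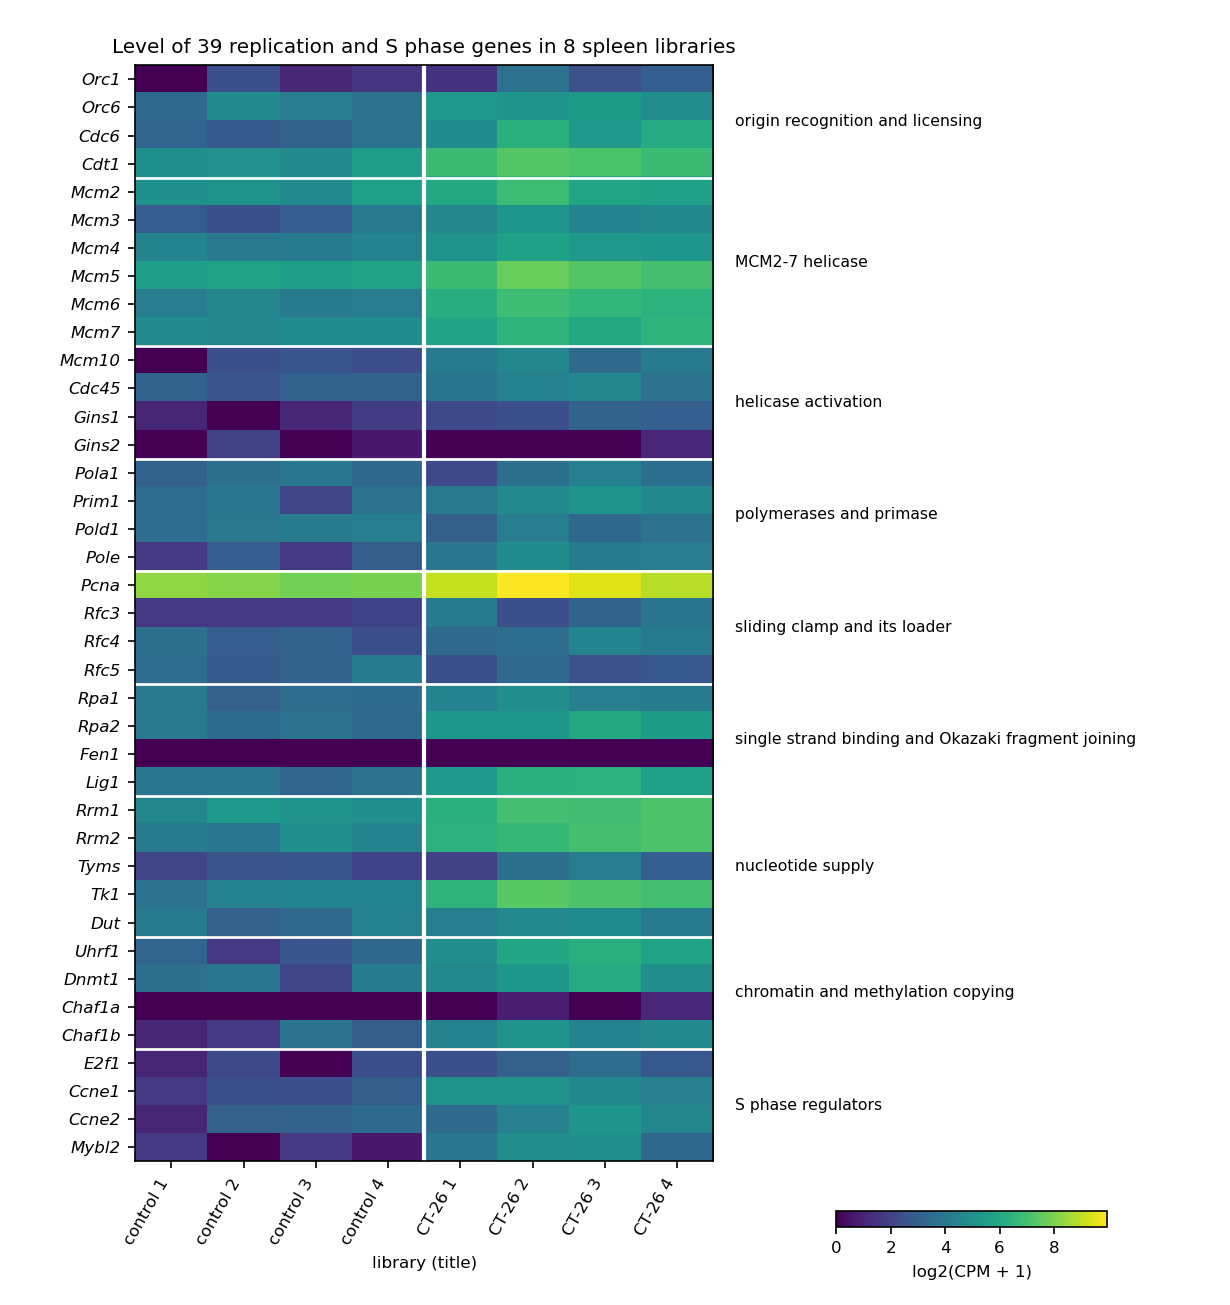
Level of each of the 39 genes (rows, by role) in each of the 8 libraries (columns, by title), as log2(CPM + 1) on a colour scale from dark for 0 to yellow for the highest. The CT-26-titled columns are lighter in most rows, and the Fen1, Gins2 and Chaf1a rows stay at or near the dark end.

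The chosen replication genes were higher in the CT-26-titled libraries almost as a body. This was not so for every list of other genes with neighbouring roles, given further below. Of the 39 genes 30 had enough counts to be tested, and 27 of the 30 rose (edgeR's quasi-likelihood test with Benjamini-Hochberg adjustment, adjusted p under 0.05), against 21.2% of all 6408 genes tested. None fell, against 21.6% of all genes tested (also 0 members at an adjusted p under 0.05 with DESeq2 and limma-voom). In the edgeR fit none was lower even at an unadjusted p under 0.05. Their median log2 fold change was 1.73 against -0.02 for all genes tested, 26 rose at least 2-fold and 10 at least 4-fold, against 15.3% and 5.31% of all genes tested. The members were picked with earlier results of these data known, so no test was made of these counts. In these bulk samples more cells in S phase and more RNA per cell cannot be told apart. Pola1, Pold1 and Dut did not pass, and Orc1, Gins1, Gins2, Rfc3, Rfc5, Fen1, Tyms, Chaf1a and E2f1 were too low to test.

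The filter on low counts favours genes that are high in 1 set. The level it asks for was 8.80 CPM of unscaled totals. Of the 30 tested genes, 18 reached it in all 4 CT-26-titled libraries but not in all 4 control-titled libraries. The 10 tested members that reached it in all 4 control-titled libraries all rose, against 17.4% of the 4569 tested genes of which this was true. With no filter 38 of the 39 could be tested, 28 were higher, against 8.87% of the 18766 genes in that fit, and 0 lower. Of the 30 tested members, 26 had every CT-26-titled value above every control-titled value, against 19.7% of all tested genes. Over all 39 genes, with no matching share computed for untested genes, 29 had this and 0 had the reverse. Those 29 were 26 tested genes with Gins1, Rfc3 and E2f1, while Rfc4 passed the test although its sets overlapped.

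The sequencing lane, read from the names of the deposited tables, divides the libraries unevenly: lane 1 holds control-titled library 3 with CT-26-titled libraries 2 and 4, lane 2 holds control-titled libraries 1 and 4 with CT-26-titled library 1, and lanes 3 and 4 hold 1 library each. Within lane 1, 35 of the 39 genes were higher in the CT-26-titled libraries and 3 lower, and within lane 2, 32 were higher and 5 lower. These are signs only, and in each of these lanes 1 of the sets is a single library. The matching share over all genes was not computed, so nothing is concluded from them. With lane as a factor 22 of the 30 tested genes rose, against 15.6% of all genes tested in that fit. Cdc45, Prim1, Rfc4, Rpa1 and Ccne2 no longer passed. The libraries of lanes 3 and 4, each alone in its lane, add nothing to the difference between sets in that fit. Whether a call was lost to lane or to the fewer libraries was not tested.

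**Figure D2:**
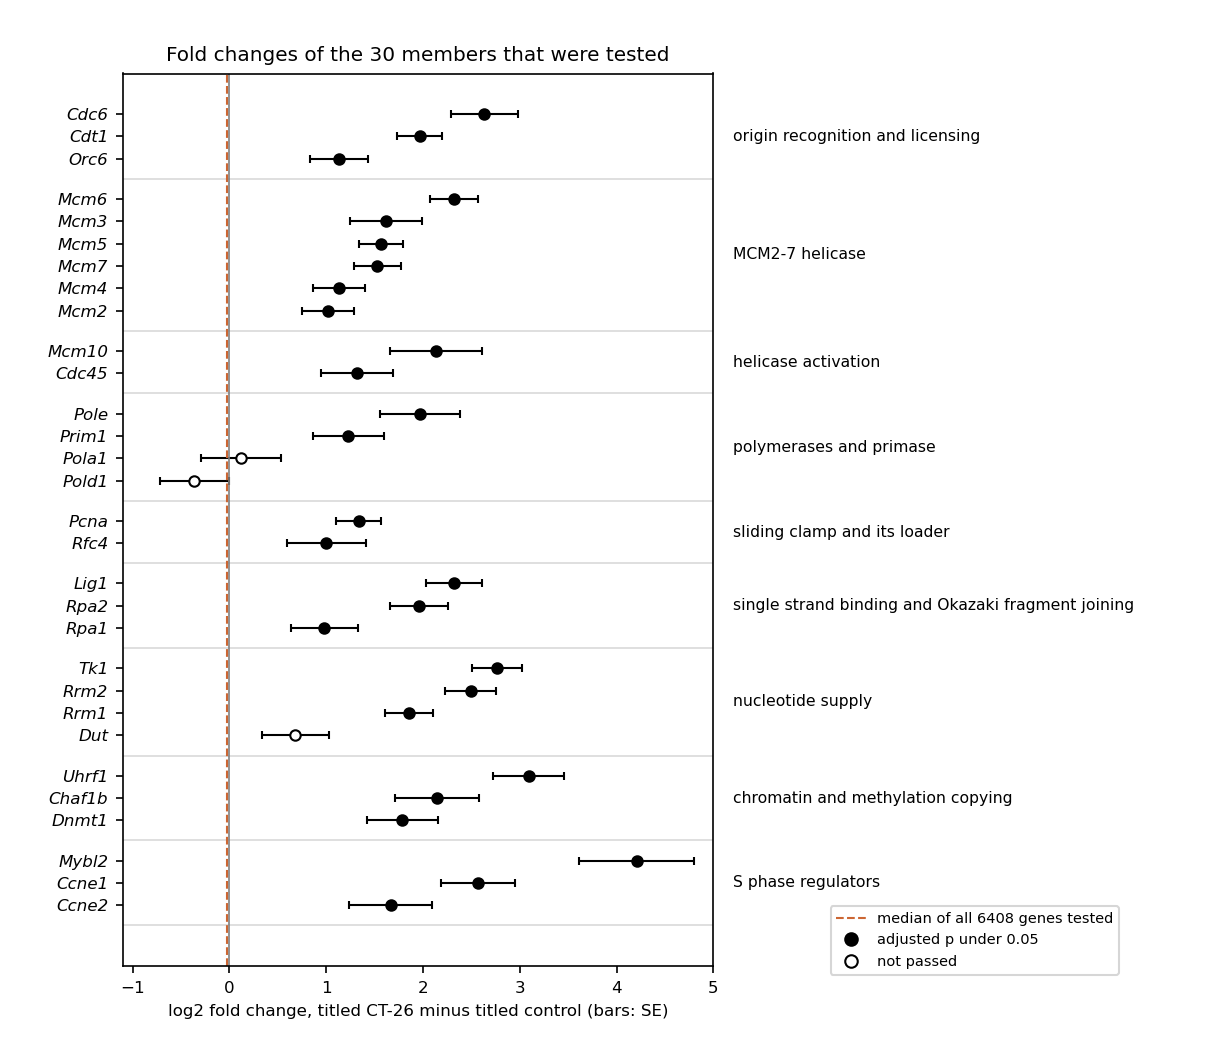
Fitted log2 fold change of the 30 tested genes, CT-26-titled minus control-titled (x axis), by role (y axis); bars are SE, n = 4 libraries per set. Filled points mark an adjusted p under 0.05, open points (Dut, Pola1, Pold1) the rest, and the dashed line the median of all 6408 genes tested.

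The 4 members that recognise and license origins are Orc1, Orc6, Cdc6 and Cdt1, and the 3 that could be tested rose. Cdt1 loads the helicase and is destroyed once S phase begins. Its CPM were 29.9, 31.9, 24.7 and 43.9 in control-titled libraries 1 to 4 and 109.6, 158, 140.4 and 109 in CT-26-titled libraries 1 to 4, with no overlap. The log2 fold change was 1.97 ± 0.23 (SE, adjusted p = 8.84e-08). Cdc6, the ATPase that works with Cdt1, lies at chr11:98798627-98814766 on the plus strand (GRCm39) and had CPM of 8.54, 5.80, 7.52 and 12.03 against 27.4, 78.8, 41.1 and 69.3. CT-26-titled library 1 was the lowest of its set and still more than double the highest control-titled value. The Cdc6 change was 2.63 ± 0.35 (SE, adjusted p = 5.17e-07), the steepest of the group. Orc6, a subunit of the origin recognition complex, moved least, with CPM of 9.61, 26.1, 17.2 and 12.03 against 38.9, 34.6, 42.02 and 28.4 and a change of 1.13 ± 0.30 (SE, adjusted p = 0.00303). Its control-titled values were uneven, and library 2 came close to the lowest CT-26-titled library. Orc1, the largest subunit of the complex, had 10 counts in all in the control-titled set and 30 in the CT-26-titled set.

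All 6 genes of the MCM2-7 helicase, the ring that unwinds DNA at the fork, rose. The 6 log2 fold changes ran from 1.02 for Mcm2 to 2.32 for Mcm6, although the proteins assemble in equal numbers. Mcm5 lies at chr8:75836197-75855067 on the plus strand (GRCm39), and its CPM were 45.9, 53.6, 47.3 and 52.3 in the control-titled libraries and 109, 199, 154 and 129 in the CT-26-titled libraries. The control-titled values lay close together, and the change was 1.57 ± 0.22 (SE, adjusted p = 1.71e-06). Mcm6, at chr1:128259327-128287401 on the minus strand, went from 17.1, 21.7, 16.1 and 17.4 to 72.5, 115, 95.7 and 80.6, a 4.98-fold fitted difference (2.32 ± 0.25, SE, adjusted p = 1.64e-08). Mcm2 had the smallest change, with 30.97, 33.3, 25.8 and 47.5 against 62.8, 112, 56.3 and 49.96 and 1.02 ± 0.27 (SE, adjusted p = 0.00284). Control-titled library 4 came within reach of CT-26-titled library 4, and CT-26-titled library 2 stood well above the rest of its set. Without that library the Mcm2 change was 0.70 and still passed. Mcm3 (1.61 ± 0.37), Mcm7 (1.53 ± 0.25) and Mcm4 (1.13 ± 0.27, all SE) lay between, none with overlapping sets. Without control-titled library 4 the Mcm3 change was 2.21.

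Mcm10, Cdc45, Gins1 and Gins2 turn the loaded ring into a moving helicase, and the pair that could be tested rose. Mcm10 was listed at 0 in control-titled library 1 and had CPM of 0, 4.35, 5.37 and 4.21 against 15.9, 22.8, 9.83 and 15.9. Its change was 2.13 ± 0.47 (SE, adjusted p = 0.000542). Cdc45 had 7.48, 5.07, 7.52 and 7.82 against 13.3, 19.9, 23.2 and 12.5, with a change of 1.31 ± 0.37 (SE, adjusted p = 0.00509) that was lost with lane as a factor (0.94, edgeR adjusted p = 0.154). Both were low genes, with 18 and 34 counts in all in the control-titled set and 74 and 79 in the CT-26-titled set. Gins1, a GINS subunit, had 1.07, 0, 1.07 and 2.41 against 3.54, 4.42, 8.05 and 6.81 CPM, 6 counts against 25. It had no overlap and passed only in the fit without a filter (log2 fold change 2.21, edgeR adjusted p = 0.0286). Gins2, another GINS subunit, had 5 counts in the control-titled set, 4 of them in library 2, and 1 in the CT-26-titled set.

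Of the 4 polymerase and primase members 2 rose. Prim1, the primase subunit that lays down RNA primers, and Pole, the catalytic subunit of polymerase epsilon on the leading strand, rose, while Pola1 and Pold1 did not pass. Prim1 had CPM of 10.7, 13.8, 3.22 and 12.03 in the control-titled libraries and 15.03, 24.3, 33.97 and 23.8 in the CT-26-titled libraries, a change of 1.23 ± 0.36 (SE, adjusted p = 0.00717). With lane as a factor it was as large and did not pass (1.28, edgeR adjusted p = 0.0508). Pole had 2.14, 6.52, 2.15 and 6.62 against 14.1, 27.3, 16.1 and 17.03 and changed by 1.97 ± 0.42 (SE, adjusted p = 0.000319). In both genes every CT-26-titled library lay above every control-titled library. Pold1, the catalytic subunit of polymerase delta on the lagging strand, had 10.7, 14.5, 16.1 and 18.04 against 7.07, 17.7, 8.94 and 12.5, and the fitted difference was -0.36 ± 0.36 (SE, adjusted p = 0.442). Pola1, the catalytic subunit of the polymerase that extends primers, lies at chrX:92348373-92675761 on the minus strand of the X chromosome (GRCm39) and had 7.48, 11.6, 13.96 and 9.02 against 3.54, 11.8, 18.8 and 11.4. Its fitted difference was 0.12 ± 0.41 (SE, adjusted p = 0.839; -0.62 with lane as a factor, not passed), and its sets overlapped throughout, with the lowest and the highest values both in the CT-26-titled set. These SE leave room for a moderate difference in either direction for Pola1. Both counts were modest, 51 in each set for Pola1 and 75 against 53 for Pold1.

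Pcna encodes the sliding clamp that holds polymerases on DNA, and it was the most abundant member per length in both sets, with a mean of 304 TPM in the control-titled set and 755 TPM in the CT-26-titled set. Next in the control-titled set came Mcm5 at 34.3 TPM and Cdt1 at 28.8 TPM, and, among the CT-26-titled libraries, Rrm2 at 112 TPM and Cdt1 at 112 TPM. Neighbours in these orders below Pcna differed by less than the larger of their SDs. Pcna CPM were 313, 279, 229 and 244 in the control-titled libraries and 529.6, 984, 702 and 472 in the CT-26-titled libraries. Sets did not overlap, but the CT-26-titled values spread more than 2-fold, and the change was 1.34 ± 0.23 (SE, adjusted p = 2.67e-05). A processed copy, Pcna-ps2, took between 15 and 74 counts per library, against 213 or more for Pcna. Counting had no option for multimapping reads, so reads that fit both equally would be missing from both. The size of such a loss was not tested.

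The clamp loader opens the PCNA ring, and its small subunits Rfc3, Rfc4 and Rfc5 were all low in counts. Rfc4 had CPM of 11.7, 6.52, 7.52 and 4.21 against 9.73, 11.1, 21.5 and 15.9, with control-titled library 1 inside the CT-26-titled range. Its change of 1.0 ± 0.41 (SE, adjusted p = 0.0481) lay at the threshold, and it was lost when control-titled library 2, 3 or 4 or CT-26-titled library 3 or 4 was left out, with fitted values from 0.76 to 1.28 over all 8 such fits. With lane as a factor it was 0.59 (edgeR adjusted p = 0.441). Rfc3 was higher without overlap, at 2.14, 2.17, 2.15 and 3.01 against 15.9, 4.42, 8.05 and 13.6 CPM from 12 and 45 counts, and passed in the fit without a filter (2.11, edgeR adjusted p = 0.00266). Rfc5 had the reverse sign, at 10.7, 5.80, 7.52 and 15.6 against 4.42, 9.58, 4.47 and 5.68 CPM, and in the unfiltered fit its difference was -0.63 (edgeR adjusted p = 0.395).

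Replication protein A coats exposed single strands, and Lig1 joins Okazaki fragments after Fen1 has trimmed their flaps. Rpa1, Rpa2 and Lig1 rose. Lig1 had CPM of 13.9, 13.8, 8.59 and 12.6 against 40.7, 75.1, 80.5 and 51.1 and a change of 2.32 ± 0.29 (SE, adjusted p = 2.06e-07). Rpa2, the middle subunit, had 14.95, 10.1, 12.9 and 9.62 against 37.1, 37.6, 65.3 and 42.01 and 1.96 ± 0.30 (SE, adjusted p = 3.92e-06). Rpa1, the large DNA-binding subunit of the same complex, had 14.95, 7.25, 10.7 and 10.2 against 20.3, 28.7, 17.9 and 15.9 and 0.98 ± 0.34 (SE, adjusted p = 0.0217). The lowest CT-26-titled value of Rpa1 was only just above the highest control-titled value, and its call was lost without control-titled library 2 or CT-26-titled library 2 (values from 0.78 to 1.17 over the 8 fits) and with lane as a factor (0.88, edgeR adjusted p = 0.134).

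Fen1 was listed at 0 counts in all 8 libraries. In the annotation used, 84.2% of the exonic bases of Fen1 also belong to 2 other genes, of which Gm10143, on the opposite strand, shares most. Counting was without strand and without an option to count fragments that fall on more than 1 gene. Exonic bases were also shared for 67.3% of Gins2 (with Gse1) and 52.5% of Chaf1a (with Ubxn6), the other members that were nearly without counts. These 3 were the only members with more than 50% of exonic bases shared, and 25 shared none. The 3 partner genes named had at most 4 counts in any library. The part of this sharing in the low counts of Fen1, Gins2 and Chaf1a was not tested, and their values are given as they stand in the tables.

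Transcripts of the deoxynucleotide supply members rose with those of the fork genes, in 3 of 4 tested members. Tk1, thymidine kinase of the salvage pathway, lies at chr11:117706352-117716918 on the minus strand (GRCm39), and its CPM were 12.8, 20.3, 21.5 and 21.7 in the control-titled libraries and 88.4, 169, 141 and 126 in the CT-26-titled libraries. This was a 6.79-fold fitted difference (2.76 ± 0.26, SE), with the smallest adjusted p of the members (edgeR, 1.15e-09). Rrm1, the large subunit of ribonucleotide reductase, had 22.4, 39.9, 33.3 and 30.1 against 73.4, 126, 119 and 142 and changed by 1.86 ± 0.25 (SE, adjusted p = 5.32e-07). Rrm2, the small subunit that is made in S phase, changed by 2.49 ± 0.27 (SE, adjusted p = 1.38e-08), from a mean of 20.1 ± 7.22 to 112 ± 26.7 CPM (SD, n = 4). Dut, which removes dUTP, had 16.02, 7.25, 9.67 and 20.4 against 18.6, 24.3, 27.7 and 15.9 and did not pass (0.68 ± 0.35, SE, adjusted p = 0.112). Its control-titled libraries 1 and 4 overlapped the CT-26-titled set. Without control-titled library 4 the Dut change was 1.03 and passed (edgeR adjusted p = 0.0282). Tyms, thymidylate synthase, had 20 counts against 44 and was not tested. Its CT-26-titled library 1 lay below the whole control-titled set.

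Chromatin has to be copied along with DNA, and here the members rose that maintain DNA methylation. Uhrf1, at chr17:56610321-56630486 on the plus strand (GRCm39), reads hemimethylated DNA and recruits Dnmt1, which methylates the new strand. Uhrf1 CPM were 8.54, 2.17, 5.37 and 9.02 in the control-titled libraries and 28.3, 61.1, 74.2 and 53.4 in the CT-26-titled libraries, a 8.52-fold fitted difference (3.09 ± 0.37, SE, adjusted p = 9.90e-08), and 2.35 with lane as a factor. Dnmt1 had 11.7, 13.8, 3.22 and 15.6 against 24.8, 37.6, 68.8 and 29.5 and 1.79 ± 0.36 (SE, adjusted p = 0.000263). CT-26-titled library 3 was the highest of its set in both genes. Chaf1b, a subunit of the assembly factor that places histones behind the fork, changed by 2.14 ± 0.44 (SE, adjusted p = 0.000230), from 5.69 ± 5.37 to 24.8 ± 5.99 CPM (SD, n = 4), and by 2.73 without control-titled library 3. Chaf1a, its partner subunit, had 0 counts against 2.

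Of the regulators, the cyclin E genes and Mybl2 rose. Mybl2, an E2F target that takes part in the switch to the G2 and mitosis programme, lies at chr2:162896607-162926608 on the plus strand (GRCm39). It had the largest fold change of the members: 2.14, 0, 2.15 and 0.601 CPM against 14.1, 28.7, 30.4 and 9.08, or 5 counts against 97, with 4.21 ± 0.59 (SE, adjusted p = 1.50e-06), and 3.33 with lane as a factor. All control-titled values were near 0, so its size is less certain than its direction. Ccne1 had 2.14, 4.35, 4.30 and 6.62 against 32.7, 33.9, 24.1 and 19.3 and 2.57 ± 0.38 (SE, adjusted p = 2.77e-06). Ccne2, with the same role, had 1.07, 7.25, 7.52 and 9.62 against 9.73, 19.2, 34.9 and 22.7 and 1.67 ± 0.43 (SE, adjusted p = 0.00249), which lane as a factor reduced to 1.05 (edgeR adjusted p = 0.143). In Ccne2 the gap between the sets was narrow, control-titled library 4 at 9.62 and CT-26-titled library 1 at 9.73 CPM. E2f1, the activator of many of these genes, had 13 counts against 32, no overlap, and no pass in the unfiltered fit (1.53, edgeR adjusted p = 0.0760).

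**Figure D3:**
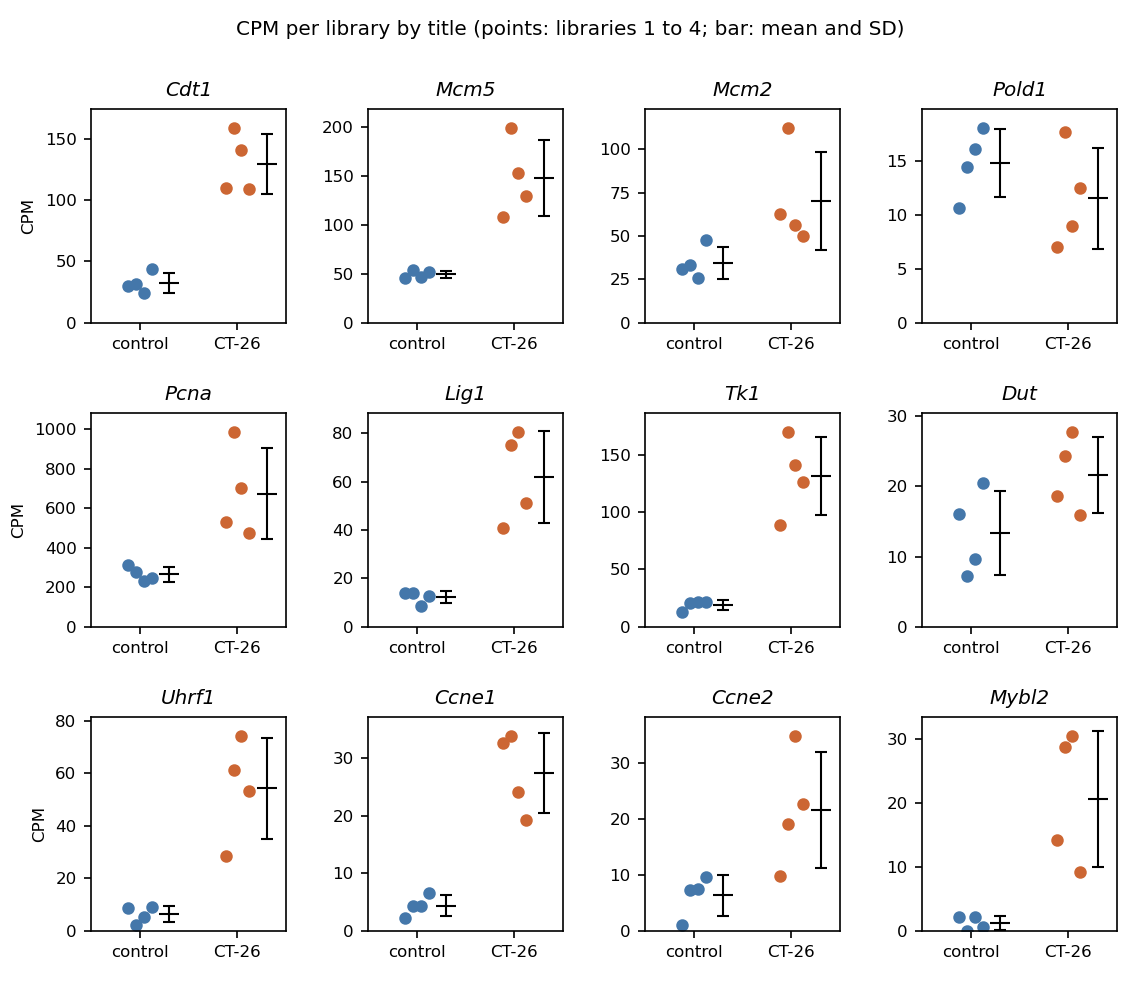
CPM (y axis, linear from 0) of 12 of the genes whose values are printed by library, in the 4 control-titled and the 4 CT-26-titled libraries (points), with mean and SD (bars). The sets overlap for Pold1 and Dut and are apart for the other genes drawn, narrowly for Mcm2 and Ccne2.

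Partner genes were compared in 5 pairs by their ratio within a library, which does not depend on library scaling. The log2 ratio of Rrm2 to Rrm1 counts was -0.67 ± 0.59 (SD, n = 4) in the control-titled set and -0.02 ± 0.23 in the CT-26-titled set, a difference of 0.65 (exact two-sided permutation test, p = 0.0571, adjusted p = 0.0952 over 5 ratios). Rpa2 to Rpa1 differed by 0.95 (exact permutation p = 0.0571, adjusted 0.0952), with CT-26-titled library 2 inside the control-titled range. Ccne2 to Ccne1 differed by -0.74 (exact permutation p = 0.2, adjusted 0.2) and was the most variable within sets among these 3. None of the 5 passed after adjustment, and with 4 against 4 libraries the smallest p that 70 assignments can give is 0.0286. Adjusted over 5 ratios, a lone ratio at that p could not pass, so no conclusion is drawn from this outcome. The remaining ratios, Chaf1b to Chaf1a (1.59, exact permutation p = 0.114, adjusted 0.143) and Gins2 to Gins1 (-2.91, exact permutation p = 0.0286, adjusted 0.0952), rest on the few counts of Chaf1a and Gins2.

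As a body the 39 genes took between 0.124% and 0.154% of non-mitochondrial counts in the control-titled libraries, and between 0.311% and 0.488% in the CT-26-titled libraries. Without Pcna the shares were between 0.0761% and 0.104% and between 0.212% and 0.317%. Within the CT-26-titled set, library 2 held the highest CPM of all 8 libraries for 16 genes and library 3 for 15, while library 4 did so for 3 and library 1 for 1. The summed CPM followed that order, 2816 in library 2, 2375 in library 3, 1936 in library 4 and 1664 in library 1. The control-titled libraries lay between 652 and 759. Relative spread was much alike in both sets, with a median coefficient of variation over the tested members of 0.302 and 0.298.

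Genes with neighbouring roles were counted the same way, to be read against the 21.2% of all tested genes that were higher and the 21.6% that were lower. Of 15 other origin licensing and firing genes 14 were tested, 5 rose and 1 fell (median 0.67). Gmnn, the inhibitor of Cdt1, changed by 3.36 ± 0.45 (SE, adjusted p = 6.23e-07), from 2.30 ± 1.43 to 23.96 ± 8.25 CPM (SD, n = 4). Ticrr, which brings Cdc45 to origins, changed by 3.28 ± 0.44, Dbf4, the activating subunit of the kinase that fires them, by 2.47 ± 0.26, and Topbp1 by 1.05 ± 0.23 (all SE). Of the 13 other fork protection and Okazaki genes 9 were tested, 7 rose and 0 fell (median 1.78). Clspn, which relays the fork checkpoint, changed by 3.70 ± 0.37 (SE, adjusted p = 4.91e-09), Atad5, which unloads PCNA, by 2.52 ± 0.31, Wdhd1 by 1.91 ± 0.37, and Top2a, a topoisomerase, by 1.78 ± 0.21 (SE).

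Among 9 tested of 11 other polymerase, clamp loader and RPA genes, 2 rose and 2 fell (median 0.10), shares near those of all genes tested. Pole3 rose by 1.32 ± 0.22 (SE, adjusted p = 1.95e-05), and Pole4, which pairs with it in polymerase epsilon, went the other way at -1.53 ± 0.24 (SE, adjusted p = 5.84e-06), from 122 ± 20.96 to 41.99 ± 12 CPM (SD, n = 4). Pold2 rose by 0.94 ± 0.35 and Pold4 changed by -1.05 ± 0.25 (SE). Of 10 other nucleotide genes 6 were tested, 1 rose and 2 fell (median 0.06), counts too few to set apart from all genes. Samhd1, which degrades deoxynucleotides in resting cells, changed by -2.04 ± 0.22 (SE, adjusted p = 1.56e-08), from 424 ± 105 to 103 ± 6.15 CPM (SD, n = 4). Rrm2b, the reductase subunit that p53 induces, changed by -1.68 ± 0.35 and Dck, a salvage kinase, by 1.31 ± 0.22 (SE).

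Histone and chromatin genes rose in 4 of 9 cases and fell in 0 (median 0.87): Asf1b, a histone chaperone, by 2.69 ± 0.28, Dek by 2.56 ± 0.25, Nasp, a chaperone of histone H3, by 0.91 ± 0.27 and Slbp, which binds histone messages, by 0.87 ± 0.27 (SE). Other regulators of S phase rose in 10 of the 11 tested out of 13, and 0 fell (median 1.99). E2f2, an activator of the same family as E2f1, went from 60.7 ± 13.3 to 768 ± 251 CPM (SD, n = 4; 3.66 ± 0.27, SE, adjusted p = 4.13e-11). Ccna2, the S phase and G2 cyclin, rose by 2.60 ± 0.22, Dtl, which directs the destruction of Cdt1, by 2.81 ± 0.32, and Rbl1 (p107) by 1.89 ± 0.22 (SE). Brakes on S phase entry did not fall as a group: of 11 tested of 12, 6 rose and 3 fell (median 1.46). The inhibitors Cdkn1a (p21) at 4.01 ± 0.49, Cdkn2c (p18) at 2.40 ± 0.29 and Cdkn1b (p27) at 1.46 ± 0.22 rose, as did the repressor E2f4 at 1.54 ± 0.22 (SE). The antiproliferative genes Btg1, Btg2 and Tob1, named because they were the 3 that fell, changed by -0.67 ± 0.22, -0.89 ± 0.21 and -0.93 ± 0.29 (SE).

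**Figure D4:**
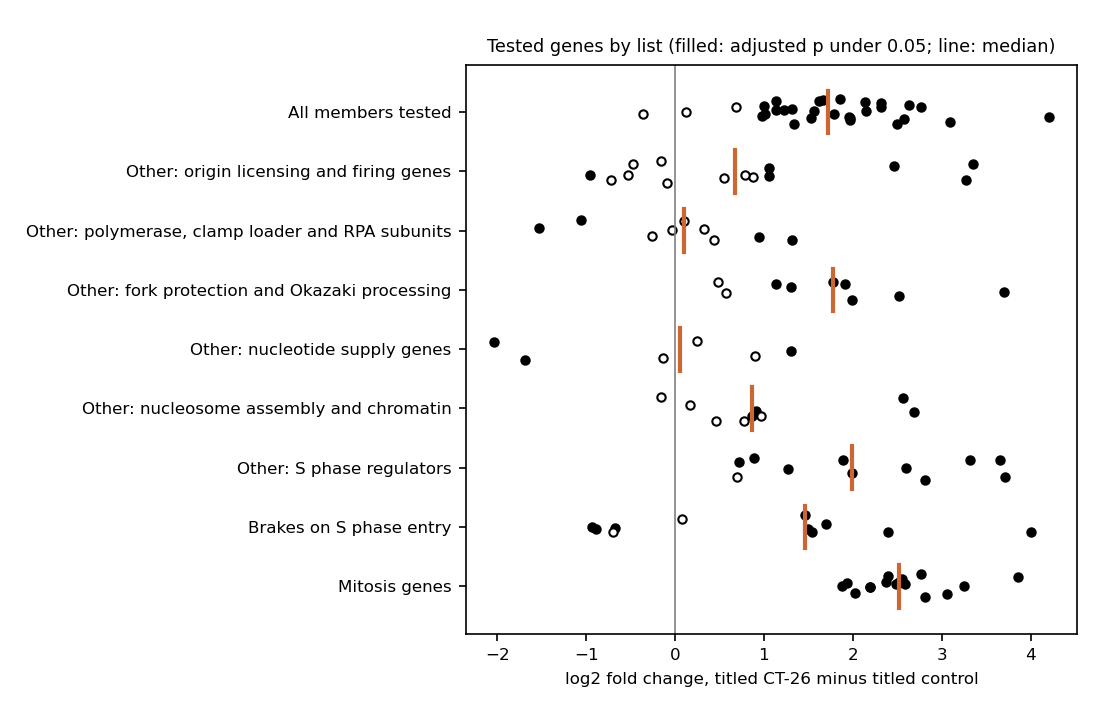
Log2 fold changes of tested genes (points) in each list (y axis), CT-26-titled minus control-titled (x axis), with the list's median (vertical line); filled points passed the test and open points did not. The members and the mitosis genes lie almost wholly to the right of 0, while the other polymerase and other nucleotide genes lie on both sides.

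Mitosis genes, 20 genes that act after S phase, rose in all 17 tested cases, with a median log2 fold change of 2.52 against 1.73 for the replication genes, among them Aurkb (3.86 ± 0.29), Birc5 (3.26 ± 0.23), Ccnb2 (3.06 ± 0.25) and Cdk1 (2.59 ± 0.24, all SE). Their summed CPM lay between 661 and 1024 in the control-titled libraries and between 4006 and 5986 in the CT-26-titled libraries, against 652 to 759 and 1664 to 2816 for the 39 replication genes. The ratio of the replication sum to the mitosis sum was therefore between 0.685 and 1.08 in the control-titled set and between 0.397 and 0.496 in the CT-26-titled set, without overlap. The sums are not divided by length, so only the difference of the ratio between the sets is read. It was given no test, since both lists were picked with these data known.

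**Figure D5:**
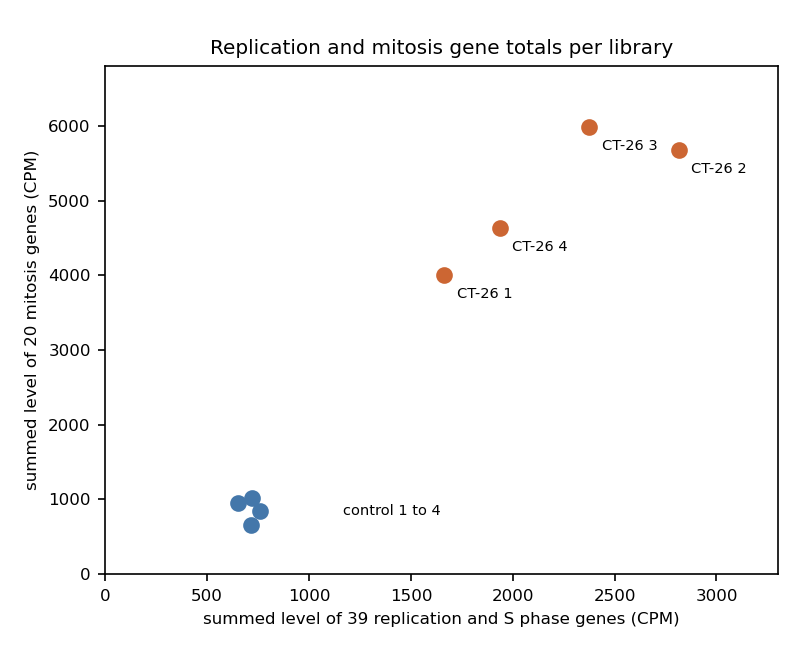
Summed CPM of 20 mitosis genes (y axis) against that of the 39 replication genes (x axis), both linear from 0, 1 point per library. The control-titled points lie together at 652 to 759 on the x axis, and the CT-26-titled points lie at 1664 to 2816 and higher for their place on the x axis.

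Markers of several cell types moved with these genes, and their part in the result was not tested. Erythroid precursor genes rose in 12 of 12 cases (median 2.19), with summed CPM of 863 to 1084 in the control-titled set and 3217 to 6045 in the CT-26-titled set. Slc4a1, the red cell anion exchanger, changed by 3.44 ± 0.25 (SE). Neutrophil precursor genes rose in all 7 tested of 9 (median 4.05), from 185 to 360 up to 1528 to 4110 summed CPM, with Mpo, the granule peroxidase, at 5.24 ± 0.45 and Prtn3 at 4.71 ± 0.37 (SE). Lymphocyte genes were lower: 9 of 10 B cell genes fell (1988 to 3142 against 346 to 718 summed CPM) and 11 of 11 tested T cell genes fell (1504 to 2213 against 328 to 790). Germinal centre B cells, a dividing population of spleen, had 0 of 8 genes testable, with summed CPM of 28.9 to 39.7 against 14.0 to 29.2. Of 8 red pulp macrophage genes 4 fell (1572 to 1825 against 928 to 1151 summed CPM), and 1 of 3 tested plasma cell genes of 8 fell. Carcinoma epithelium genes were near 0 in both sets, 4.81 to 15.0 against 5.68 to 16.8 summed CPM over 9 genes, with Krt19 and Cldn3 at 0 in all 8 libraries. B cell, T cell and red pulp markers had counts in all 8 libraries. Whether they set spleen apart from other tissues was not tested.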

How the data were processed

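RNA-seq of total RNA from spleen gave 1 table of raw counts per gene for each of 8 libraries (735298 to 1970950 counts), deposited by the authors. The counter was featureCounts 2.0.1 in paired mode, per the file headers, run on GENCODE M29 (GRCm39), without strand and without options to count fragments on several genes or multimapping reads. Trimmomatic 0.39 and STAR 2.7.10a are named in the submitters' processing notes, which list GRCm39 and GRCm38. Receptor tables were not used here. Symbols were matched by Ensembl identifier for 52081 of 55414 genes. RefSeq promoters (GRCm38.p6) served for letters only.

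Low genes were removed by filterByExpr, library sizes were TMM-scaled, and edgeR 4.0.16 made the test (robust quasi-likelihood, Benjamini-Hochberg over all 6408 genes, threshold 0.05). SE is the log2 fold change divided by the square root of F. CPM and TPM were computed from the counts, TPM over non-mitochondrial genes by union exon length. Ratios used log2((count + 0.5)/(count + 0.5)) and exact permutation. Alternatives used DESeq2 1.42.0, limma 3.58.1, other scalings and filters, lane, a replicate block and leaving out each library. Replicate numbers did not pair the samples: same-numbered libraries correlated between -0.0914 and 0.0764, and no label gives the numbers a meaning. No library was a copy of another within its set (lowest chi-square per degree of freedom 4.38). The procedure was tested on simulated counts with few changed genes, as many higher as lower. This does not test the scaling where as many genes change as in these data. Software was R 4.3.3, scipy 1.17.1, pandas 2.3.3, numpy 2.4.6, matplotlib 3.10.9 and Python 3.11.15.

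Levels are printed by library for the 2 members of each role with the highest mean CPM and those with the largest and smallest change, and for low or untested members chosen after their values were seen. In other lists up to 4 genes of smallest p are named. A gene that this would name is not reported here. Members, lists and alternatives were chosen with earlier results of these data known.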

Additional observations from a re-analysis of the deposited data

Results flagged for a closer look

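Single libraries stood apart from the other 3 of their set in 4 of 75 sets of member values, by the gap between the extreme value and its neighbour relative to the whole range; chance alone flags about 1 in 20. Cdc45 was lowest in control-titled library 2 (5.07 CPM, 7 counts, with the next at 7.48). Tk1 was lowest in control-titled library 1 (12.8 CPM, 12 counts, next 20.3), the library with the largest mitochondrial share, 66.1%. Rfc3 was highest in control-titled library 4 (3.01 CPM, 5 counts, next 2.17), and Gins2 in CT-26-titled library 4 (1.14 CPM from 1 count, with 0 in the other libraries of its set). The sets of Cdc45, Tk1 and Rfc3 did not overlap with or without the library named.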

How the results depend on the processing

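The number of replication genes that rose lay between 22 and 28 over all alternatives and was 0 for those that fell in each, while the number of genes changed in all lay between 2006 (lane as a factor) and 3384 (no filter), against 2740. Without TMM log2 fold changes lay higher by a median of 0.37 over all genes, and 1936 genes were higher and 725 lower in place of 1359 and 1381, 28 members rose, Dut passed (1.08, edgeR adjusted p = 0.0173) and Pold1 turned to 0.0073. Pola1 had -0.046 with limma-voom, -0.62 with lane as a factor and -0.21 without CT-26-titled library 3, and over the 8 omissions ran from -0.21 to 0.44; none of these values passed. DESeq2 called 26 members, and Rfc4 was the call lost there, without a filter (1.07, edgeR adjusted p = 0.0665) and with the replicate number as a block. With that block 26 members and 2668 genes passed (Rfc4 0.96, edgeR adjusted p = 0.0752). Leaving out 1 library gave 25 to 27 members higher, and 25 of the 27 calls were kept in all 8 such fits. The exceptions were Rfc4 and Rpa1. Over the same omissions the log2 ratios differed by 0.37 to 0.82 for Rrm2 to Rrm1, 0.71 to 1.20 for Rpa2 to Rpa1, -1.09 to -0.32 for Ccne2 to Ccne1, 0.99 to 2.01 for Chaf1b to Chaf1a and -3.31 to -1.72 for Gins2 to Gins1. The cause of the turns of sign in Pola1 and Pold1, neither of which passed in any fit, was not tested. At these depths 9 of the 39 genes did not reach the filter, and no fold is given for Fen1, which had 0 counts throughout.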
